A study of Canis lupus familiaris with 5 samples.

Results

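Transcripts of 7 genes of the IL-6 cytokine family pathway were followed through single nuclei of canine cephalic vein: the receptor chains IL6R, IL6ST, LIFR and OSMR, the transcription factor STAT3, and the feedback inhibitors SOCS3 and SOCS1. They were taken by name from a fixed list, after numeric suffixes had been stripped from the feature names. All 7 were found among the 35120 distinct gene names of the feature table. Control vein was a separate, undistended segment (n = 2 libraries, dogs 1 and 2). Distended vein (n = 2, dogs 1 and 2) was taken after cannulation and injection of saline with papaverine and bivalirudin, with about 30 min for distension and harvest. Grafted vein (n = 1, dog 1) had been harvested and distended in the same way, implanted into the carotid artery under bivalirudin, and collected 24 h later. Per the labels, every library came from a male mongrel dog of 25 kg under general anesthesia, and all tissue was snap-frozen. Libraries are named by group and dog number (control 1, distended 2). No age is given in the labels, and no sham-operated vein is among these groups.

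Cytokines of the IL-6 family signal through the shared receptor chain IL6ST, also called gp130, which pairs with ligand-specific chains: IL6R for IL-6, LIFR for leukemia inhibitory factor, and OSMR for oncostatin M. Receptor engagement activates Janus kinases, which phosphorylate STAT3, and STAT3 in turn drives transcription of acute-phase, survival and inflammatory genes. SOCS3 and SOCS1 are induced by the same signal and shut it off, so their transcripts are commonly read as traces of recent cytokine exposure. In vessel walls the pathway is known for endothelial activation and leukocyte recruitment.

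Libraries differed widely in depth and composition, before any comparison of groups. The number of kept nuclei ran from 241 (distended 2) to 2705 (graft), and the total UMIs (counted molecules) from 410604 to 11302558. Features LOC119877772 to LOC119877775 took 61.4% to 70.4% of control UMIs, 26.5% to 38.5% of those from distended vein and 2.98% of the graft's. Levels are therefore given in CPM, here the UMIs of a gene scaled to an equal total of all UMIs outside these 4 features and the nameless ones. On that base the median per nucleus was 274 to 545.5 UMIs before grafting and 2350 in the graft. Ribosomal protein genes held 0.493% to 2.45% of it in both controls and distended 1, but 8.30% in distended 2 and 5.48% in the graft. Only 5 of 7391 barcodes occurred in more than 1 library. Clusters were named from marker lists as endothelial-like, fibroblast-like, smooth muscle-like, myeloid-like and lymphatic endothelial-like. Of 16 clusters 1 stayed unnamed.

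OSMR, the chain that binds oncostatin M together with IL6ST, was read in 4641 UMIs. Its level over all nuclei was 1129 CPM in control 1, 677 in control 2, 524 in distended 1, 233 in distended 2 and 275 in the graft. Both controls lay above every other library. The control mean was 903 ± 320 (SD, n = 2), against 378 ± 206 (SD, n = 2) in distended vein. The edgeR log2 fold change was -1.29 (SE 0.81, adjusted p = 1) for distended against control and -1.86 (SE 1.07, adjusted p = 0.587) for grafted against control. Neither difference passed the edgeR test. In whole vein sums a smaller share of a cell type and less RNA per nucleus cannot be told apart, so the same levels were read within classes.

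In endothelial-like nuclei OSMR stood at 1192 CPM in control 1, 969 in control 2 and 1075 in distended 1. It stood at 193 in distended 2 and 269 in the graft. The distended vein of dog 1 thus lay within the range of the controls, and the low values were those of distended 2 and the graft. At an equal depth of 200 UMIs per nucleus, 22.2%, 16.9% and 21.2% of endothelial-like nuclei held an OSMR UMI in the first 3 of these libraries, against 4.52% (95% exact interval 1.83 to 9.08) and 7.12% (5.61 to 8.89) in the other pair. Nuclei too shallow to thin numbered 70, 138, 23, 1 and 0 and were left out, and such intervals cover counting error only. Without thinning the shares were 46.0%, 22.7%, 50.7%, 14.7% and 66.8%, at median depths of 434, 298, 656, 525 and 4231 UMIs. As a background, myeloid-like nuclei of distended 1 held an OSMR UMI in 1.06% of nuclei at a median of 446.5 UMIs.

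The same split ran through the endothelial markers. The 16 markers together reached 19037, 16231 and 19406 CPM in the endothelial-like nuclei of control 1, control 2 and distended 1, but 7686 in distended 2 and 8008 in the graft, with all 16 detected in each library. Markers of fibroblasts summed to 631 to 889 CPM in these nuclei, and those of myeloid cells to 65.1 to 305. The part of these marker levels in the OSMR values was not tested. Most endothelial-like nuclei of distended 2 (128 of 156) fell in cluster 1, which also held nuclei of the other libraries taken before grafting. These 128 nuclei held 16 of the 36 OSMR UMIs of the class in distended 2. Another 9 lay in cluster 7, led by ribosomal protein genes. The class level of distended 2 therefore also rests on nuclei outside cluster 1. Within cluster 1 OSMR was 1231 CPM in control 1 (32 nuclei), 1109 in control 2 (209), 856 in distended 1 (172) and 204 in distended 2, so the gap between the distended veins was present within that cluster too.

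**Figure D1:**
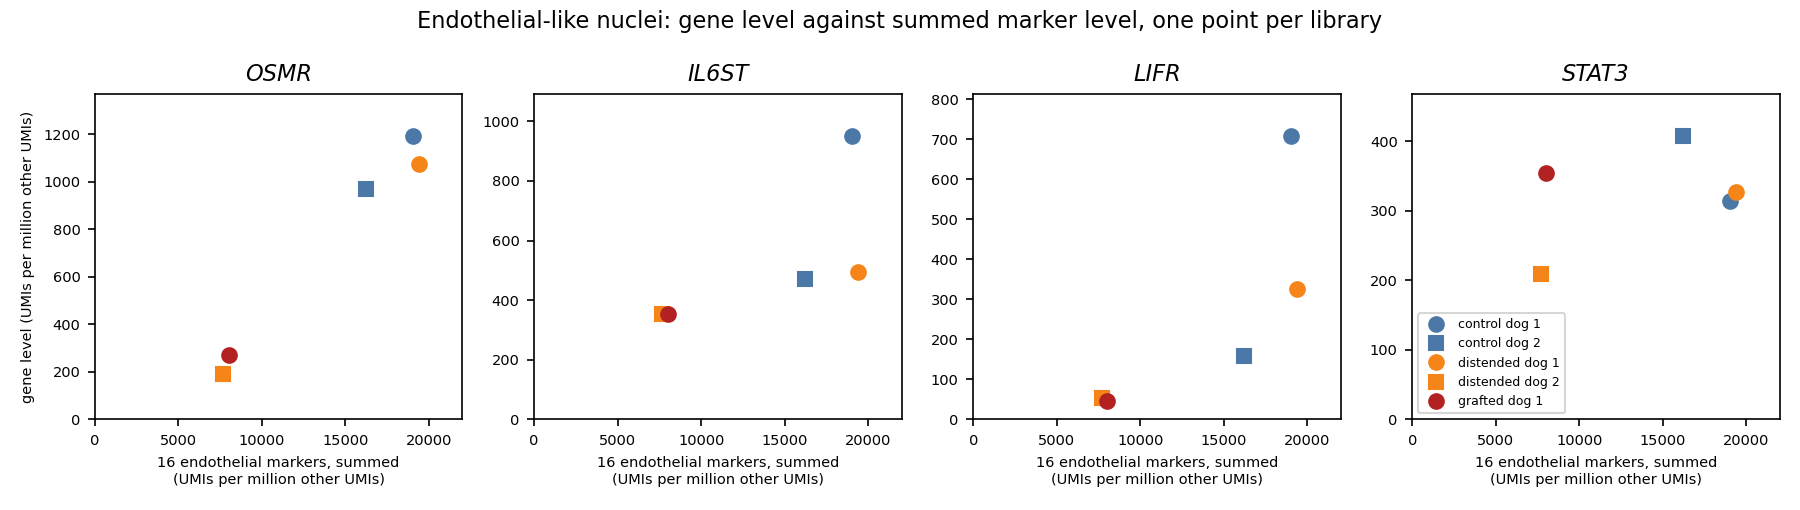
Level of OSMR, IL6ST, LIFR and STAT3 in endothelial-like nuclei (vertical axes) against the summed level of 16 endothelial markers in the same nuclei (horizontal axes), both in CPM, with 1 point per library. Distended 2 and the graft sit at 7686 and 8008 on the marker axis, and both have the lowest OSMR and LIFR levels, while STAT3 of the graft lies among the controls.

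Graft endothelial-like nuclei came from clusters found almost only there. Cluster 15 (754 graft nuclei) and cluster 7 (250 graft nuclei, led by ribosomal protein genes such as RPL15 and RPS27A) differed in OSMR, at 378 and 146 CPM, and both were below the controls. Cluster 7 was named from 5 detected endothelial markers, and cluster 15 from 8. At Leiden resolution 0.4, and clustered without the dominant features, the RPL15-led cluster was also endothelial-like, with 5 and 4 markers. At resolution 1.5 it was unnamed, with 2 markers detected on its best list, mesothelial or epithelial. Of 1857 OSMR UMIs in graft endothelial-like nuclei 475 lay in cluster 7, so graft values of this class depend in part on that name. Outside endothelium OSMR was also read in smooth muscle-like nuclei, at 286, 438 and 352 CPM in control 1, distended 1 and the graft, from 7, 12 and 24 UMIs. Lymphatic endothelial-like nuclei, found in number only in distended 1 in the main clustering (129 nuclei), held 881 CPM. At Leiden resolution 1.5 a further cluster of that name held 144 graft nuclei and 15 of distended 2. Clustered without the dominant features, the class held 133 nuclei of distended 1, 31 of control 2 and 25 of the graft. In fibroblast-like nuclei OSMR was at 857 (9 UMIs), 248, 140, 423 (12 UMIs) and 315 CPM. These are in the order control 1, control 2, distended 1, distended 2 and graft. Fibroblast-like OSMR values of the groups overlapped, and 775 of the 781 graft nuclei of that class formed a cluster of their own, number 12.

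**Figure D2:**
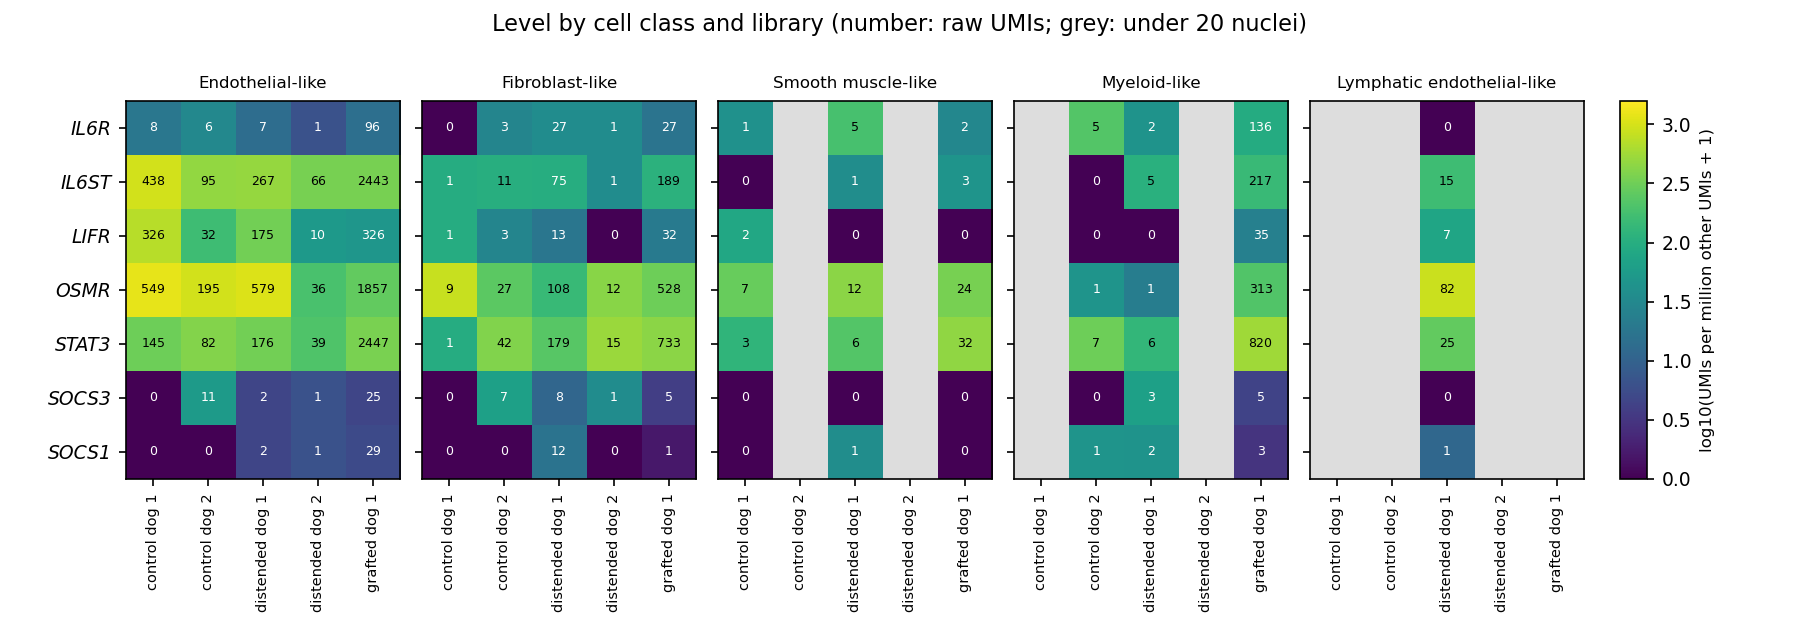
Level of each gene (rows) by library (columns) in 5 cell classes, coloured by log10(CPM + 1), with raw UMIs printed in each cell and grey for classes under 20 nuclei. The receptor chains OSMR, IL6ST and LIFR are bright in endothelial-like nuclei of both controls and distended 1, and SOCS3 and SOCS1 rest on 29 UMIs or fewer in every cell.

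IL6ST is the signal-transducing chain that all these receptors share. Over all nuclei it stood at 878 CPM in control 1, 318 in control 2, 246 in distended 1, 293 in distended 2 and 278 in the graft. Control 1 was far above the rest, while control 2 exceeded the other 3 libraries by little. The control mean of 598 ± 396 (SD, n = 2) had a wider spread than its distance from the distended mean of 269.5 ± 33.7 (SD, n = 2). edgeR gave -1.22 (SE 0.77, adjusted p = 1) for distended and -1.25 (SE 0.98, adjusted p = 0.661) for grafted against control, as log2 fold changes. Without control 1 these became -0.26 in both comparisons.

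Endothelial-like nuclei held 99.8%, 88%, 72.6%, 80.5% and 80.5% of all IL6ST UMIs in controls 1 and 2, distended 1 and 2, and the graft. They made up 86.25%, 54.3%, 29.5%, 64.7% and 37.4% of the nuclei in that order, and held 92.1%, 59.2%, 36.0%, 66.8% and 63.4% of all other UMIs. Within them the level was 951, 472, 496, 353 and 354 CPM. Control 2 and distended 1 differed by little, and the lowest levels of the class were those of distended 2 and the graft. Within cluster 1 the distended veins lay in the other order, at 271 CPM in distended 1 (43 UMIs) and 331 in distended 2 (26 UMIs). Controls 1 and 2 held 769 (10 UMIs) and 498 CPM there. Fibroblast-like nuclei ran lower, at 95.2, 101, 97.4, 35.3 and 113 CPM, and the values of dog 1 before grafting and of distended 2 rest there on 1, 75 and 1 UMIs. In cluster 15 of the graft IL6ST was at 391 CPM and in cluster 7 at 312.

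LIFR, the chain for leukemia inhibitory factor, differed widely between the controls. Its level over all nuclei was 658 CPM in control 1, 103 in control 2, 131 in distended 1, 57.2 in distended 2 and 41.1 in the graft. Control 1 stood alone, and the graft was below every other library. The control mean was 380.4 ± 392 (SD, n = 2). The edgeR log2 fold change of grafted against control was -3.35 (SE 1.30), with an unadjusted p of 0.0286 and an adjusted p of 0.555. For distended against control it was -2.02 (SE 0.93, unadjusted edgeR p 0.0558, adjusted p = 1). Without control 1 the grafted difference was -1.39 in edgeR (adjusted p = 0.778). Without distended 1 it was -3.39 and passed the edgeR threshold. That library belongs to neither group, but all groups share the estimate of spread. The fit left 1 distended library and called many other genes too, where the main fit called 0.

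In endothelial-like nuclei LIFR was at 708 CPM in control 1, 159 in control 2, 325 in distended 1, 53.5 in distended 2 and 47.2 in the graft. The distended libraries overlapped the controls, and the graft lay below all. The edgeR difference of grafted against control was -3.24 (SE 1.43, unadjusted p 0.0426, adjusted p = 0.414). It passed the edgeR threshold without distended 1 (-3.30) and without distended 2 (-3.25). Those fits left 1 distended library and called many other genes too, where the main fit called 0. With finer clusters at Leiden resolution 1.5 it also passed (-3.12, edgeR adjusted p = 0.0395), in a fit that called 765 of 10703 genes. Leaving out control 1 gave -1.77 (edgeR adjusted p = 0.718), and leaving out control 2 gave -3.98 (edgeR adjusted p = 0.666). For distended against control the edgeR value was -1.18 (SE 1.00, adjusted p = 1), and without control 1 it turned to 0.27. At 200 UMIs per nucleus, 16% of endothelial-like nuclei held LIFR in control 1, 2.12% in control 2, 4.85% in distended 1, 1.29% in distended 2 and 0.890% in the graft. Unthinned, these shares were 32.3%, 4.97%, 16.6%, 5.13% and 19.9%. Like LIFR, the endothelial markers given beside OSMR were lowest in distended 2 and the graft. Among control 1, control 2 and distended 1, all with high marker levels, LIFR ranged from 159 to 708 CPM. Both graft clusters were low, with 54.5 CPM in cluster 15 and 39.1 in cluster 7. At resolution 1.5, where LIFR passed, the graft class held 655 nuclei instead of 1011, and the RPL15-led cluster was unnamed. Before grafting, LIFR had 0 UMIs in 57 myeloid-like nuclei of control 2 and in 94 of distended 1, which allows shares of nuclei with a LIFR UMI of up to 5.26% and 3.19% and bounds no share of expressing nuclei.

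**Figure D3:**
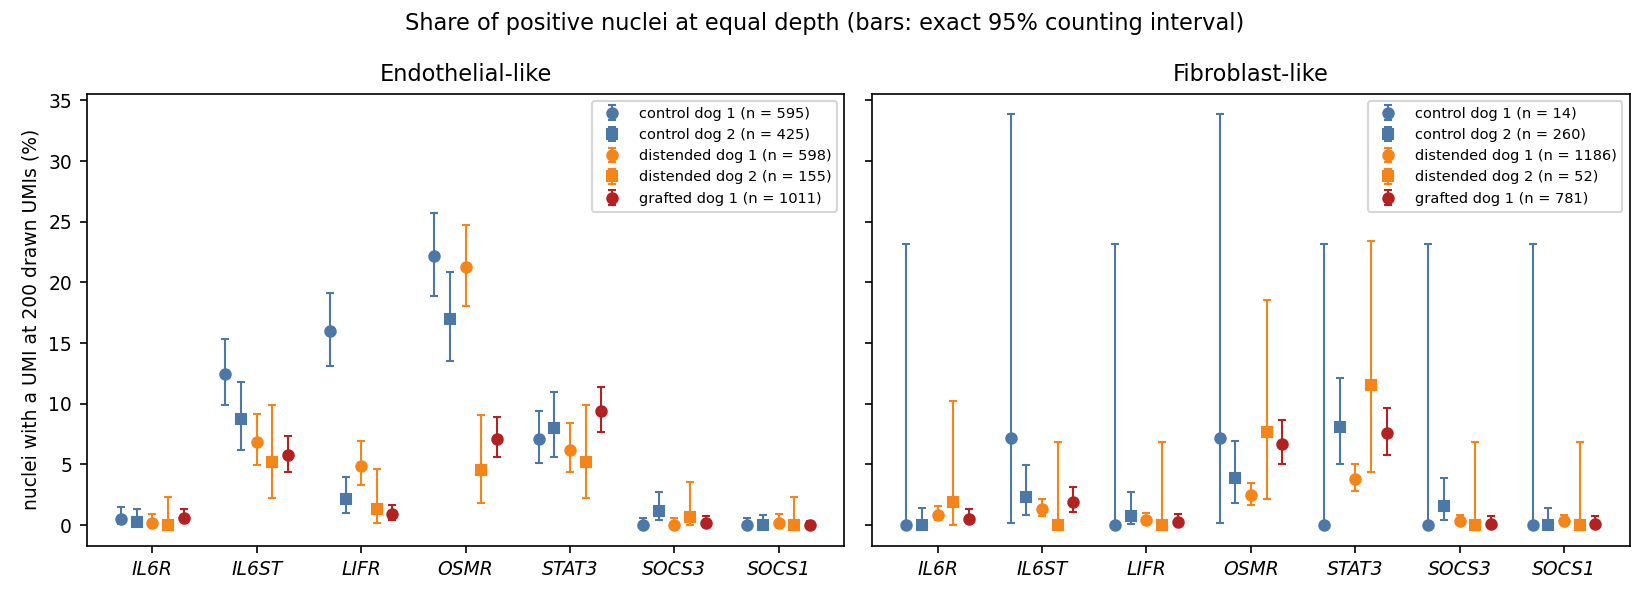
Percent of endothelial-like (left) and fibroblast-like (right) nuclei with at least 1 UMI of each gene after each nucleus was thinned to 200 UMIs, per library, with exact 95% counting intervals and the number of nuclei in the legend. OSMR is at 16.9% to 22.2% in both controls and distended 1 and at 4.52% and 7.12% in distended 2 and the graft, while LIFR stands out in control 1 alone.

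IL6R, which makes a cell responsive to IL-6 itself, was sparse in all libraries. It had 10 UMIs in control 1, 15 in control 2, 41 in distended 1, 2 in distended 2 and 281 in the graft, or 20.0, 44.2, 27.4, 7.15 and 25.8 CPM. The groups overlapped, and edgeR gave -0.79 (SE 0.93, adjusted p = 1) for distended and -0.46 (SE 1.10, adjusted p = 0.897) for grafted against control. The graft value sat between the controls. Within the graft it was highest in myeloid-like nuclei, at 91.9 CPM from 136 UMIs, against 13.9 in endothelial-like and 16.1 in fibroblast-like nuclei of the same library. Within these myeloid-like nuclei cluster 11 held 149 CPM and cluster 13, led by IL1R2, PLEK and AQP9, held 65.0. Myeloid-like nuclei of control 2 held 222 CPM, but from 5 UMIs, and those of distended 1 held 43.0 from 2 UMIs. IL6R was the member with the smallest share of its graft UMIs in endothelial-like nuclei, 34.2%, against 56.4% to 80.5% for the other 6.

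Graft myeloid-like nuclei also held OSMR at 212 CPM, IL6ST at 147 and LIFR at 23.7. In the same nuclei the 16 endothelial markers summed to 3732 CPM. The clusters differed: cluster 11 had 83.7 CPM of OSMR with endothelial markers at 1026, and cluster 13 had 273 with markers at 5029. Myeloid-like nuclei before grafting held OSMR in 1 UMI each in control 2 and distended 1, with endothelial markers at 444 and 408 CPM. The part of endothelial RNA in these graft values was not tested.

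STAT3, the transcription factor below these receptors, was read in 5103 UMIs. Over all nuclei it was at 299.8 CPM in control 1, 389 in control 2, 268 in distended 1, 279 in distended 2 and 398 in the graft. Both distended libraries were below both controls by a small margin, and the graft was just above control 2. With the TMM scaling of the tests the graft lay between the controls, at 199.7 against 164 and 221 CPM. The control mean was 344 ± 62.9 (SD, n = 2) and the distended mean 274 ± 7.49 (SD, n = 2). edgeR log2 fold changes were -0.41 (SE 0.68, adjusted p = 1) for distended against control, 0.05 (SE 0.82, adjusted p = 0.985) for grafted against control and 0.46 (SE 0.81, adjusted p = 1.00) for grafted against distended. None passed the test, and without control 1 the grafted difference from control was -0.03.

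By class STAT3 did not follow OSMR. Endothelial-like nuclei held 315 CPM in control 1, 408 in control 2, 327 in distended 1, 209 in distended 2 and 354 in the graft. The graft lay between the controls although its endothelial markers were low. That graft value was an average of unlike clusters: cluster 15 held 522 CPM and cluster 7 held 166. With cluster 7 left out of the class, an alternative chosen after the data were seen, the edgeR log2 fold change of grafted against control was 0.32 (adjusted p = 0.840) instead of -0.10 (SE 1.00, adjusted p = 0.972). Within cluster 1 STAT3 was at 462 (6 UMIs), 511, 289 and 357 CPM in controls 1 and 2 and distended 1 and 2. Distended 2 was thus above distended 1 there, unlike in the whole class. Fibroblast-like nuclei held 95.2 (1 UMI), 386, 233, 529 (15 UMIs) and 437 CPM in the order used above. Myeloid-like nuclei of the graft held 554 CPM and smooth muscle-like nuclei 470 (32 UMIs). In the graft, nuclei of every named class therefore held STAT3 between 354 and 554 CPM.

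**Figure D4:**
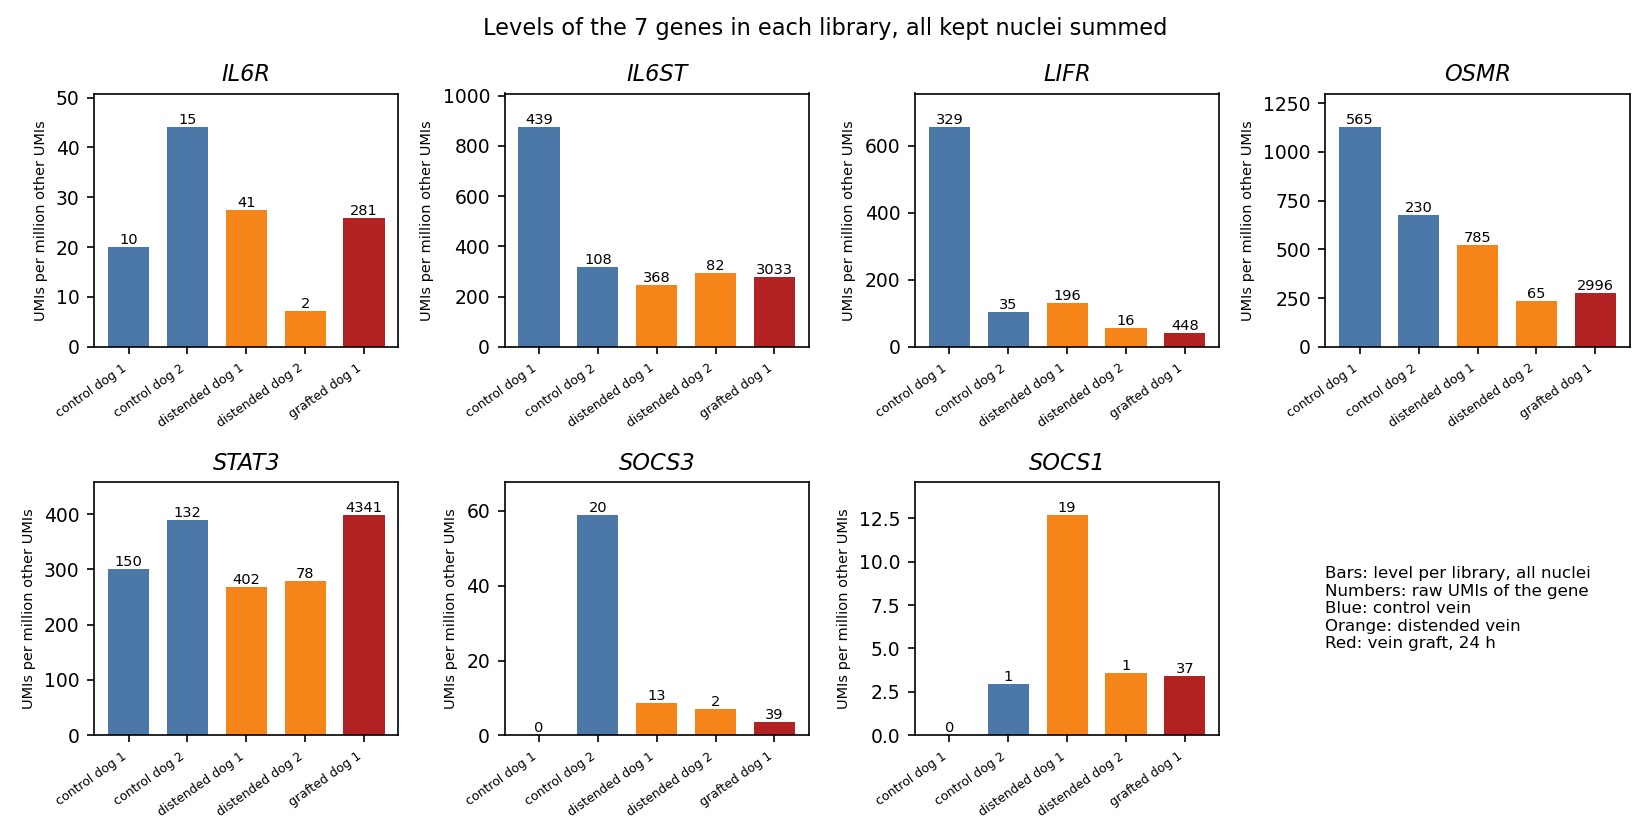
Level of each of the 7 genes per library over all kept nuclei (bars, CPM, separate axis per gene), with raw UMIs above each bar. The receptor chains IL6ST, LIFR and OSMR are highest in control 1, STAT3 differs little between libraries, and SOCS3 is carried by control 2 and SOCS1 by distended 1.

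SOCS3, the main inhibitor of IL6ST signalling, was read in 74 UMIs in all. It had 0 UMIs in the 771 nuclei of control 1, which allows a share of nuclei with a UMI, not of nuclei expressing the gene, of up to 0.389%. It had 20 UMIs in control 2. Distended 1 and 2 had 13 and 2, and the graft had 39. As levels these are 0, 58.9, 8.68, 7.15 and 3.58 CPM. Control libraries lay on both sides of all others. The edgeR log2 fold change was -1.88 (SE 1.52, adjusted p = 1) for distended and -3.15 (SE 1.93, adjusted p = 0.603) for grafted against control. Both turned positive without control 2, at 7.81 and 6.56, because the remaining control library held no SOCS3 UMI. Of 39 graft UMIs 25 (64.1%) lay in endothelial-like nuclei, which held 63.4% of all other UMIs of that library, and 15 of those 25 lay in the ribosomal-led cluster 7. As levels, graft cluster 7 held 4.62 CPM and cluster 15, with 10 UMIs, held 2.74. Smooth muscle-like nuclei held 0 in every library. The share of graft endothelial-like nuclei with a SOCS3 UMI was 2.27% unthinned and 0.198% at 200 UMIs, near the level of a single UMI per library, so no order is read from it.

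SOCS1, an inhibitor that acts directly on Janus kinases, was sparser still. It had 0 UMIs in control 1, 1 in control 2, 19 in distended 1, 1 in distended 2 and 37 in the graft. These correspond to 0, 2.95, 12.7, 3.58 and 3.39 CPM, so distended 1 held the highest level. The ratio of pooled counts was 9.45 for distended over control, with an exact 95% counting interval from 1.51 to 392, and 2.85 (0.481 to 116) for grafted over control. Of the 20 pooled distended UMIs 19 came from distended 1. edgeR gave 2.78 (SE 2.03, adjusted p = 1) and 1.25 (SE 2.25, adjusted p = 0.855) as log2 fold changes. Leaving out 1 library moved them between 1.65 and 8.01 and between 0.13 and 6.48. In distended 1 the 19 UMIs were split into 12 in fibroblast-like nuclei, 2 in endothelial-like, 2 in myeloid-like and the rest elsewhere. Fibroblast-like nuclei held 51.4% of all other UMIs of that library. In the graft 29 of 37 (78.4%) lay in endothelial-like nuclei, which held 63.4% of its other UMIs, and 23 of these 29 lay in cluster 7. As levels, graft cluster 7 held 7.08 CPM and cluster 15, with 6 UMIs, held 1.64.

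Across the 7 genes, edgeR called 0 in whole vein in each of the 3 comparisons, which share libraries. Over all 13182 genes tested it also called 0, or 0%, in each. An unadjusted edgeR p under 0.05 was reached by 0, 1 (LIFR) and 0 members for distended against control, grafted against control and grafted against distended, and by 1.44%, 8.87% and 5.55% of all genes. DESeq2 called 1, 114 and 30 of all genes and none of the members. P-values rest on 2 dogs, and the single graft was given the spread of the control and distended libraries. The members' median log2 fold change was -1.22, -1.25 and -0.58 in these comparisons, beside 0.08, 0.13 and 0.01 over all genes.

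Members whose libraries did not overlap between groups are given beside the share of all tested genes of which the same held. In distended vein IL6ST, OSMR and STAT3 (3 of 7) lay below both controls, as did 9.12% of genes, and SOCS1 (1 of 7) lay above, as did 14.3%, with 1 UMI each in control 2 and distended 2. In the graft IL6ST, LIFR and OSMR (3 of 7) lay below both controls, as did 28.7% of genes, while STAT3 and SOCS1 (2 of 7) lay above, as did 48%. With the TMM scaling of the tests, an alternative chosen after the data were seen, SOCS1 alone (1 of 7) lay above, as did 43.3% of genes, and the members that lay apart in the other whole vein comparisons were those named here. Against both distended libraries the graft was lower for LIFR, SOCS3 and SOCS1 (3 of 7), as were 25% of genes, and higher for STAT3 (1 of 7), as were 36.7%. With 1 SOCS1 UMI each in control 2 and distended 2, no order of the graft against either is shown for SOCS1. The SOCS3 value of distended 2 rests on 2 UMIs.

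In endothelial-like sums 6 members passed the filter on low counts, SOCS1 being left out, and edgeR again called 0 in every comparison (0% of 10921 genes in each). Unadjusted p-values under 0.05 were reached by 2.12%, 12% and 5.17% of genes in the order above, and by LIFR alone among members, in grafted against control. DESeq2 called 2, 92 and 12 genes, none of them a member. IL6R was lower in both distended libraries (7 and 1 UMIs) than in both controls (8 and 6), where 9.88% of genes were. IL6R, IL6ST, LIFR and OSMR (4 of 6) were lower in the graft than in both controls, where 31.6% of genes were. Against both distended libraries the graft was lower for LIFR and SOCS3 (2 of 6, 26.3% of genes) and higher for IL6R and STAT3 (2 of 6, 33.4%). In distended 1 and 2, SOCS3 rests there on 2 and 1 UMIs and IL6R on 7 and 1. No order is shown for these members. In fibroblast-like sums 3 members (IL6ST, OSMR, STAT3) passed the filter. Of these edgeR called 0 in distended against control (0% of 7342 genes), 0 in grafted against control (2.67%) and 0 in grafted against distended (2.82%). Unadjusted p-values under 0.05 were reached by none of the 3, against 1.23%, 12.8% and 12.7% of genes. DESeq2 called 0, 56 and 31 genes and no member. In distended vein 0 of the 3 lay below both controls, where 9.81% of genes did, and 0 above, where 20% did. In the graft 0 lay below both controls (20.6% of genes), and IL6ST and STAT3 lay above (48.9%). Against distended vein 0 lay below (23.1%), and IL6ST lay above (41.9%). None of these held with TMM scaling: graft IL6ST was then at 51.8 CPM against 35.4 and 60.1 in the controls and 57.6 and 14.3 in distended vein, and graft STAT3 at 200.8 against 35.4 and 229 in the controls. With that scaling 0 lay above in either graft comparison, and OSMR lay below both controls, as did 21.8% of genes.

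**Figure D5:**
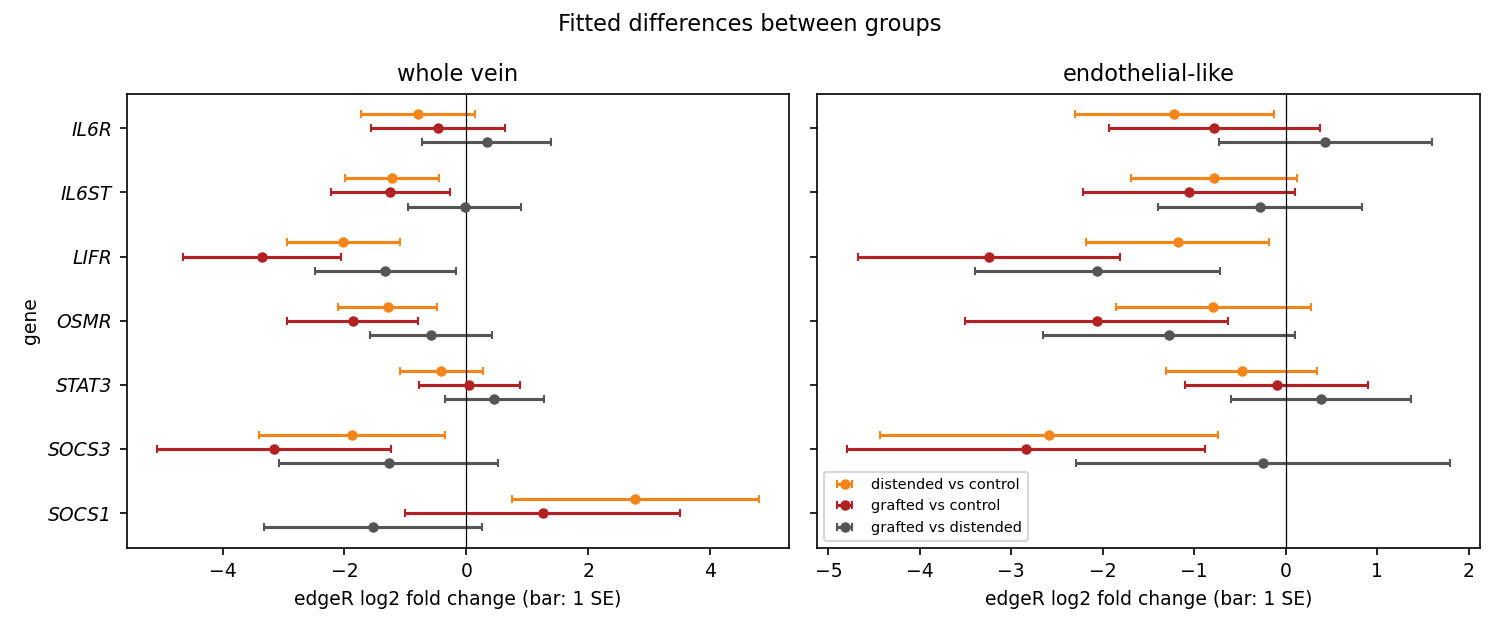
edgeR log2 fold change (horizontal axis, bars of 1 SE) of each member for the 3 comparisons in whole vein (left) and in endothelial-like nuclei (right), where SOCS1 was not tested. LIFR for grafted against control lies farthest below 0 in both panels, at -3.35 and -3.24, and no point passed the adjusted threshold.

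Detection of receptor chains in the same nucleus was read in the graft, where nuclei with and without a UMI differed in depth. Among 675 graft endothelial-like nuclei with an OSMR UMI, 75.9% also held IL6ST, against 46.1% of those without OSMR, and their median depths were 5156 and 2812.5 UMIs. Of 201 nuclei with LIFR, 80.6% held IL6ST, at a median of 6180 UMIs. The 23 SOCS3-positive nuclei had a median of 27153 UMIs against 4204 in the others. Co-detection was not compared at equal depth, and these values describe 1 library.

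Genes with the most similar pattern were sought over 17 sums of a library and a named class, by Pearson's r of log2(CPM + 10), where sums of 1 library share its depth and composition. LIFR was nearest to DAB2IP (r = 0.90), MMRN2 (0.89) and the endothelial gene VWF (0.88). IL6ST was nearest to S100A10 (r = 0.94), the endothelial receptor TEK (0.91) and MET (0.86), and OSMR to FBXL7 (0.85), SOGA1 (0.85) and TJP1 (0.85). IL6R was nearest to LRCH4 (r = 0.92), AP5Z1 (0.90) and the myeloid adaptor PRAM1 (0.87). STAT3 was nearest to HIPK1 (r = 0.86), HNRNPH3 (0.86) and COG3 (0.86). For SOCS3 (AMIGO3, r = 0.79, ZNF184, 0.78, and KMT5A, 0.76) and SOCS1 (ZBP1, 0.87, CDC42SE1, 0.86, and BDH1, 0.82) the pattern rests on 74 and 58 UMIs.

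The ligands of these receptors were read mainly in the graft. IL6 had 0 UMIs in control 1, 33 in control 2, 21 in distended 1, 29 in distended 2 and 3317 in the graft, or 0, 97.2, 14.0, 104 and 304 CPM. Over all nuclei the graft was highest, with distended 2 and control 2 next and close together. Its edgeR log2 fold change was 2.50 (SE 1.63, adjusted p = 0.616) for grafted against control. In the graft, 397 of 1011 endothelial-like, 293 of 781 fibroblast-like and 106 of 536 myeloid-like nuclei held an IL6 UMI, without thinning. In fibroblast-like nuclei IL6 was at 0, 92.0, 1.30 (1 UMI), 529 (15 UMIs) and 400 CPM in the order above, so distended 2 lay above the graft. In endothelial-like nuclei it was at 0, 114, 35.3, 37.5 and 340 CPM, with the graft highest. LIF had 0, 0, 0, 2 and 49 UMIs in the same order, 39 of the graft's in fibroblast-like nuclei. OSM, the oncostatin M gene, had 36 UMIs, all in the graft and 28 of them in myeloid-like nuclei. IL11, which signals through IL6ST with its own receptor chain, had 1, 1, 0, 0 and 116, with 83 of the last in fibroblast-like nuclei. For OSM, the graft level of 3.30 CPM was under the 3.57 that a count of 3 over both controls represents. Absence of OSM in the controls is therefore not shown at this depth, and its absence in distended vein was not tested.

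Of 63 further pathway genes, 59 had a feature, 48 were tested in whole vein, and edgeR called 0 of these in each comparison. An unadjusted edgeR p under 0.05 was reached by 0, 1 and 3 of the 48. By group, the median log2 fold change of grafted against control was 1.40 for 4 tested ligands and -0.17 for 4 other receptors and shedding enzymes. It was -0.38 for 10 kinases, adaptors and other STATs, -0.0026 for 13 other inhibitors and -0.33 for 17 STAT3-responsive genes, beside 0.13 over all genes.

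The named pathway genes were those with the lowest p in each whole vein comparison. For grafted against control these were CCL2, a monocyte chemokine (edgeR log2 fold change 2.73, SE 0.85, adjusted p = 0.553), the angiogenic factor VEGFA (3.00, SE 1.35, adjusted p = 0.562) and PTPN2, a phosphatase that dephosphorylates Janus kinases (1.81, SE 0.83, adjusted p = 0.562). CCL2 stood at 26.0, 79.5, 49.4, 75.1 and 388 CPM in the order controls 1 and 2, distended 1 and 2, and graft, so the graft was well apart. It passed edgeR's threshold without distended 1 and without distended 2, and VEGFA did so without distended 1. These fits left 1 distended library and called many other genes too. Leaving out 1 library gave 2.22 to 3.79 for CCL2, 1.40 to 2.58 for PTPN2 and 2.01 to 11.5 for VEGFA, which had no UMI in control 1. For grafted against distended they were CCL2 (2.59), the transcription factor CEBPD (2.15) and IL11, which had no UMI in distended vein. For distended against control they were IRF1 (-2.55, SE 1.30), the adhesion molecule ICAM1 (-1.81, SE 1.06) and IL11, all with an edgeR adjusted p of 1. Both IRF1 and ICAM1 were carried by control 2, at 268 and 1378 CPM against 6.0 and 120 in control 1, and both turned positive without it.

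In fibroblast-like nuclei 36 pathway genes were tested, and TIMP1, a metalloproteinase inhibitor, was the only one edgeR called. It had 0 UMIs in both controls, 8 in distended 1, 1 in distended 2 and 491 in the graft, or 0, 0, 10.4, 35.3 and 293 CPM. These 491 were 1.75% of the TIMP1 UMIs of the graft: 92.4% lay in the ribosomal-led cluster 7, at 7958 CPM. The other graft nuclei held TIMP1 too, with 420.4 CPM in myeloid-like, 352 in smooth muscle-like and 289 in unnamed nuclei and 211 in endothelial cluster 15. In endothelial-like nuclei of control 1 it stood at 317 and in those of distended 2 at 1959 CPM. The part of free RNA in the fibroblast-like value was not tested. The graft was at least 11.6-fold higher than the controls, taking 3 counts over both as the floor. Without control 2 that bound was 1.03. The edgeR adjusted p was 0.0248 against control and 0.0368 against distended vein. Leaving out control 1 gave an edgeR adjusted p of 0.0759 for the first, leaving out control 2 gave 0.856, and leaving out distended 1 gave 1.00 for the second. With the dog as a block they were 0.592 and 0.445, and DESeq2 gave 0.181 against control. For grafted against control the edgeR adjusted p was also 0.0796 with no filter on low counts, 0.125 in nuclei with 200 genes and 0.0681 at Leiden resolution 0.4. For grafted against distended it was 0.0566 without the 4 dominant features. The setting of 200 genes left 12 fibroblast-like nuclei in control 1, under the minimum of 20, so that fit was without control 1.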

How the data were processed

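Nuclear RNA of 5 libraries was measured with a 10x 3' kit, per the labels' protocols. The matrices are raw UMI counts as the authors deposited them, from Cell Ranger 7.0.0 per the file headers. Since no source used here names a genome build, coordinates are not printed. In a RefSeq table of the assembly UU_Cfam_GSD_1.0 all 7 genes were found by symbol. There LIFR, OSMR and SOCS1 overlap unnamed loci, and how reads of the overlaps were counted is not given, so their counts are uncertain to that extent. Features without a gene name held 0.588% to 11.5% of UMIs and were left out.

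Barcodes with at least 100 detected genes were kept (6862 of 7391). Nuclei were clustered with scanpy 1.11.5 (2000 variable genes chosen, less the members, 20 principal components, Leiden resolution 0.8), and clusters were named from 13 marker lists. A marker counted as detected at 3 UMIs and 1.5 times the mean over clusters, limits set after the data were seen. The 35 nuclei marked as doublets by scrublet (0.510%) were kept. No correction was made for free RNA. For tests, nuclei being no replicates, the counts of a library were added up over every nucleus or over a class of at least 20. R 4.3.3 and edgeR 4.0.16 were used (filterByExpr, TMM, two-sided quasi-likelihood test, Benjamini-Hochberg adjustment over all genes, threshold 0.05). In fibroblast-like sums edgeR took the spread from an estimate shared between genes, with no part from a gene's own deviation from it. DESeq2 1.42.0 was an alternative. The edgeR code was tested on simulated data.

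Shares were compared after thinning to 200 UMIs that came from neither the 4 dominant features nor nameless ones, and 95% intervals are exact (Clopper-Pearson). The replicate number is the dog, so control and distended libraries are paired. Their deviations from group means correlated at -0.27 within dogs over 13182 genes. The text names all 7 members, every pathway gene past the threshold and, in whole vein, the 3 of lowest p per comparison. It also gives, for each member, the 3 genes of most similar pattern. Members and lists were chosen with earlier results of these data known.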

Additional observations from a re-analysis of the deposited data

Results flagged for a closer look

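For IL6R, the recorded values of distended and control vein lay in opposite order in 2 cell classes, from very few UMIs. In endothelial-like nuclei the recorded level was 13 against 17.4 CPM in dog 1 and 5.35 against 29.8 in dog 2. In fibroblast-like nuclei the recorded level was 35.1 against 0 in dog 1 and 35.3 against 27.6 in dog 2. The difference between the classes was not tested. The endothelial-like values rest on 7, 8, 1 and 6 UMIs, and the fibroblast-like values on 27, 0, 1 and 3. A single UMI in the fibroblast-like nuclei of control 1 corresponds to 95.2 CPM, so the 0 there is not shown to lie below 35.1, and 1 UMI against 3 gives no order in dog 2. No opposite direction between the classes is shown at this depth.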

How the results depend on the processing

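Counts of called genes depended on the settings, in the order distended against control, grafted against control and grafted against distended. In whole vein, with 0 called, DESeq2 gave 1, 114 and 30 and no low-count filter 11, 286 and 142. In endothelial-like sums, also with 0, DESeq2 gave 2, 92 and 12, no filter 13, 378 and 99, and Leiden resolution 1.5 gave 8, 765 and 343. Without cluster 7, chosen after seeing the data, the graft comparisons gave 531 and 232. In fibroblast-like sums (0, 196 and 207) the graft comparisons gave 56 and 31 with DESeq2, 30 and 1101 with no filter, 71 and 88 without the 4 dominant features, and 69 and 485 for nuclei with 200 genes. At 200 genes control 1 kept 12 fibroblast-like nuclei, under the minimum of 20, so every fibroblast-like fit of that setting was without control 1. Resolution 0.4 gave 68 for grafted against control, and 1.5 gave 2 for distended against control. With the dog as replicate block the fibroblast-like counts were 1, 12 and 118, the TIMP1 calls were lost, and no other call of a named gene changed. Crossing the dog numbers, chosen after seeing the data, gave 9, 177 and 33 in whole vein, 14, 155 and 26 in endothelial-like and 0, 7 and 2 in fibroblast-like sums. Leaving out 1 library gave 0 to 205, 0 to 643 and 0 to 450 in whole vein, 0 to 328, 1 to 1067 and 6 to 795 in endothelial-like, and 0 to 1, 4 to 337 and 0 to 2357 in fibroblast-like sums. Of the members' log2 fold changes under alternatives, 566 kept direction and side of the threshold, 4 became calls (all LIFR) and 48 changed sign. Whole vein IL6ST, grafted against distended, became 0.33 with no filter and 0.0062 without the dominant features. In endothelial-like sums STAT3, grafted against control, became 0.26 with no filter, 0.40 at resolution 1.5 and 0.32 without cluster 7. There SOCS3 became 0.058 with the replicate block for grafted against control, and 0.086 (no filter) and 1.34 (block) for grafted against distended, where IL6ST became 0.060 with no filter. In fibroblast-like sums, distended against control became 0.50 for IL6ST and 0.33 for OSMR at resolution 0.4 and -0.36 for STAT3 with 200 genes. For grafted against control there, IL6ST became 0.31 with RLE scaling, 0.37 with DESeq2, 0.46 with no filter, 0.49 without the dominant features, 0.034 without doublets, 0.78 at resolution 0.4 and 0.26 when clustered without the dominant features. OSMR became 0.069 without the dominant features, 0.057 with 200 genes and 0.78 at resolution 0.4, and STAT3 -0.032 with 200 genes. Signs also changed on leaving out 1 library. In whole vein the ranges were -2.85 to 7.81 (SOCS3), -2.61 to 0.87 (ICAM1) and -3.45 to 1.99 (IRF1) for distended against control. They were -4.10 to 6.56 (SOCS3), -0.84 to 0.26 (IL6R) and -0.034 to 0.30 (STAT3) for grafted against control, and -0.23 to 1.87 (IL6R), -0.053 to 0.041 (IL6ST) and -1.07 to 0.26 (OSMR) for grafted against distended. In endothelial-like sums they were -3.18 to 0.27 (LIFR, distended against control), -0.22 to 0.095 (STAT3, grafted against control), and -0.53 to 0.062 (IL6ST) and -2.04 to 0.54 (OSMR) for grafted against distended. In fibroblast-like sums they were -1.85 to 0.45, -0.13 to 0.75 and -0.14 to 1.90 for IL6ST and -0.43 to 2.40, -0.11 to 2.71 and -0.037 to 0.56 for STAT3 over the 3 comparisons, and -0.93 to 0.057 and -0.19 to 0.82 for OSMR in the graft comparisons. The cause of these changes was not tested. SOCS3 and SOCS1 rest on 74 and 58 UMIs over all libraries.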

Other observations

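One cluster carried no cell type name, because KIT was among its leading genes while 11 endothelial and 3 mast cell markers were detected in it. It held 341 graft nuclei, 26 of distended 2 and 6 of distended 1. In its graft nuclei STAT3 stood at 402 CPM, OSMR at 357, IL6ST at 236 and LIFR at 71.6, with the 16 endothelial markers at 11956 together. SOCS3 and SOCS1 had 4 UMIs each there. At Leiden resolution 1.5 a cluster that shared the leading genes SH3GL3 and SEMA3A was named lymphatic endothelial-like, with 144 graft nuclei. Another that shared KIT and KITLG stayed unnamed, with 287 graft nuclei. How the nuclei of the unnamed main cluster were divided between them was not tested.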
